A study of Mus musculus with 27 samples.

Results

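The genes described here are the Zfp genes of the mouse whose symbol is Zfp followed by a number and whose mean over all 27 libraries of the series was at least 10 CPM (the reads of a gene scaled to the total of its library). Of 351 such symbols listed with a Gene ID, 262 (74.6%) met this limit and 89 did not, and where a symbol had several entries the one with the highest mean was used, which applied to 14 of the 262. The libraries were made from whole retinas of wild type C57BL/6J mice at 7 ages: embryonic days E14 and E17 (n = 3 libraries each) and postnatal days P1 (n = 4), P6 (n = 3), P15 (n = 4), P28 (n = 4) and P60 (n = 6). All mice were untreated, so age was the only factor of the design. A library held a pool of 4 to 6 embryos or of at least 3 postnatal mice, except at P60, where 2 libraries were pools of 3 mice and 4 libraries came from 1 mouse each, and mice from P6 on were males whereas embryos and P1 pups were of mixed sex, so that sex cannot be told apart from age across that line. The labels do not say which P60 libraries were pools.

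Zinc finger proteins of the C2H2 type hold a zinc ion between a pair of cysteines and a pair of histidines in each finger, and a row of such fingers reads a stretch of DNA. Many of them carry a KRAB domain, which binds the corepressor KAP1 (encoded by Trim28) and with it the histone methyltransferase SETDB1, a route known for silencing retroelements and keeping parental imprints. Zfp is a naming series rather than a single family: it also holds proteins that bind RNA, act on ribosomes or attach ubiquitin or SUMO. During the ages sampled, retinal progenitors stop dividing and rods, the most numerous cells of the mouse retina, acquire their light-sensing machinery.

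The read totals behind the CPM values, recovered from their step size, were 7077781 to 11332323 per library (median 7969873), which is not the number of reads sequenced. The listed features held nearly all of them (7076646 to 11330762). Summed markers of dividing and progenitor cells fell from 5551 to 5668 CPM at E14 to 151 to 192 CPM at P60 (8 of 8 genes lower in mature retina), and summed rod markers rose from 26.1 to 34.0 CPM to 26223 to 32442 CPM (8 of 8 higher). The genes listed for pigment epithelium were Rpe65, Rlbp1, Lrat, Pmel, Tyr, Tyrp1, Ttr and Best1. They summed to 5.70 to 9.30 CPM at E14 and 124 to 173 CPM at P60 (5 of 8 higher). Whether other cells of the retina held part of this sum was not tested. Lens markers stayed at or below 7.97 CPM in every library, and no marker gene found in the table was at 0 in all libraries. The part of these shifts in the results below was not tested. Libraries of the same age differed by 0.26 to 0.435 (root mean square difference of log2(CPM + 1) over the features tested) except at P60, where the differences were 0.376 to 0.748. P60 replicates 1 and 2 were nearest to each other (0.376) and replicates 2 and 3 farthest apart (0.748). Counts of the P60 against P28 step and some other results are given below for several choices of P60 libraries. Most values of single genes in mature against embryonic retina, which also rest on P60, are given with all libraries only.

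Together the 262 genes took 1.70% of the CPM total at E14, 1.73% at E17, 1.75% at P1, 1.63% at P6, 1.34% at P15, 1.38% at P28 and 1.38% at P60. In single libraries the sum ran from 16934 to 17712 CPM up to P1, from 16110 to 16497 CPM at P6 and from 13368 to 14152 CPM from P15 on, so the libraries up to P6 did not overlap with the later ones. The mean of a gene over all libraries, which chose the members and is given as a description, ranged from 10.1 to 554.6 CPM with a median of 30.7 CPM, and 35 genes were at or above 100 CPM. Per kilobase of merged exons the median was 6.42 CPM per kb and the highest levels were those of Zfp207 (67.9 CPM per kb), Zfp292 (55.5), Zfp593 (53.3), Zfp445 (45.7) and Zfp608 (44.3). In whole retina, fewer cells that hold an RNA and less of that RNA per cell cannot be told apart.

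**Figure D1:**
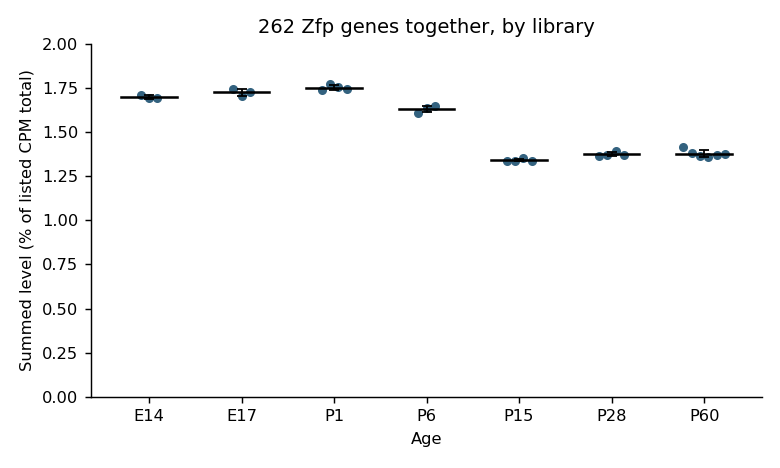
Summed CPM of the 262 Zfp genes as a percentage of the library's CPM total (y axis) at each age (x axis); each point is a library, the horizontal line the mean and the bar the SD. The 13 libraries from E14 to P6 lie above the 14 libraries from P15 to P60.

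The first comparison set mature retina (P15, P28 and P60, 14 libraries) against embryonic retina (E14 and E17, 6 libraries), with limma on log2(CPM + 1) and Benjamini-Hochberg adjustment over all 31760 features tested. All 262 genes were tested and 215 of them (82.1%) changed at an adjusted p under 0.05, against 75.4% of all features and 84.6% of the 11000 genes with a mean of at least 10 CPM. Their share of changed genes was therefore near that of genes that met the same limit, which were not otherwise matched to them in level. The directions were 67 higher and 148 lower, that is 25.6% and 56.5% of the 262 genes, beside 38.1% and 46.6% of the genes of at least 10 CPM. The median log2 fold change was -0.28, beside -0.06 over all features and -0.10 over genes of at least 10 CPM. Of the 262 genes, 53 (20.2%) changed at least 2-fold, 12 higher and 41 lower, against 31% of all features and 35.5% of genes of at least 10 CPM. For 129 genes the mature and embryonic libraries did not overlap (34 higher, 95 lower), beside 40.4% of all features. With the quasi-likelihood test of edgeR on reads recovered from the CPM values, whose scaling moved the median of all features from -0.06 to 0.04, 84 genes were higher and 134 lower and the median of the Zfp genes was -0.18.

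The 10 CPM limit is a mean over all libraries, so a gene could meet it through one period only. Both the embryonic and the mature mean reached 10 CPM for 230 genes, the embryonic mean was below 10 CPM for 9 and the mature mean for 23. Of the 230, 59 were higher (25.7%) and 125 lower (54.3%) in mature retina. Of the 78 Zfp genes below the limit that could be tested, 24 were higher (30.8%) and 28 lower (35.9%). Over all features 35% were higher and 40.4% lower, and over genes of at least 10 CPM 38.1% and 46.6%. At the limit itself, Zfp964 (10.1 CPM), Zfp52 (10.2 CPM) and Zfp661 (10.6 CPM) were just inside, and Zfp189 (9.96 CPM), Zfp637 (9.94 CPM) and Zfp965 (9.90 CPM) just outside.

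**Figure D2:**
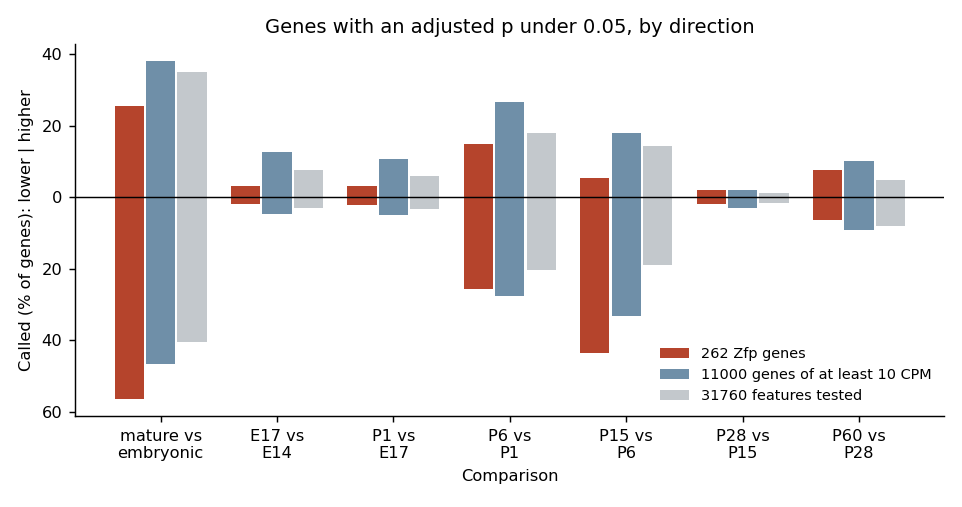
Percentage of genes called at an adjusted p under 0.05 (limma), higher above the zero line and lower below it, in each of the 7 comparisons, for the 262 Zfp genes, the 11000 genes with a mean of at least 10 CPM and all 31760 features tested. At P15 against P6, 43.5% of the Zfp genes were lower and 5.34% higher, beside 33.2% and 17.8% of genes of at least 10 CPM, a difference that was not tested.

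The largest fall was that of Zfp57, the KRAB zinc finger protein that keeps methylation marks at imprinted genes (GRCm38 chr17:37001163-37010635, plus strand). Its level was 79.4, 74.4 and 80.2 CPM at E14 and 94.2, 90.9 and 95.3 CPM at E17, then 64.1, 57.5, 74.1 and 62.9 CPM at P1, and 51.4, 50.4 and 47.6 CPM at P6. It was 11.0, 12.2, 9.86 and 8.52 CPM at P15, 7.73, 8.14, 10.3 and 7.54 CPM at P28 and 4.65 to 10.3 CPM (median 6.93) at P60. Every mature library was below every library up to P6. The log2 fold change from embryonic to mature retina was -3.19 (SE 0.0966, adjusted p = 7.46e-24), and most of it fell between P6 and P15 (-2.17, SE 0.15, adjusted p = 5.52e-13).

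Zfp704, a zinc finger protein first known as a glucocorticoid-induced gene, was among the most abundant of the genes that fell. It rose from 445, 428 and 440 CPM at E14 to 551, 574 and 604 CPM at E17 (log2 fold change 0.39, SE 0.0935, adjusted p = 0.00354) and stood at 666, 597, 638 and 673 CPM at P1. It then dropped to 247, 310 and 266 CPM at P6 and to 95.6, 108, 107 and 96.1 CPM at P15. Both steps passed the test, with log2 fold changes of -1.23 (SE 0.0874, adjusted p = 3.35e-13) and -1.42 (SE 0.0874, adjusted p = 3.32e-14). At P60 it was at 64.2 to 82.6 CPM (median 74.8), and mature against embryonic retina gave -2.49 (SE 0.0562, adjusted p = 2.54e-27). An unnamed gene on the opposite strand that overlaps its exons, C030034L19Rik, had a log2 fold change of -2.31 (adjusted p = 9.89e-21), and the reads of the pair cannot be told apart without strand information.

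The other genes with the largest falls among those whose groups did not overlap had log2 fold changes of -3.09 to -2.24. Zfp41 lay between 54.4 and 78.3 CPM (median 64.3) in embryonic libraries and between 1.97 and 10.8 CPM (median 6.95) in mature ones, a log2 fold change of -3.09 (SE 0.154, adjusted p = 4.48e-18). Zfp422 went from 43.7 to 66.2 CPM (median 59.96) down to 6.95 to 11.2 CPM (median 8.36), and 24.0% of its 50-base windows occur in another gene as well. Zfp558 (-2.41), Zfp697 (-2.40), Zfp811 (-2.28) and Zfp710 (-2.24) followed. Of these 8 genes, Zfp57, Zfp558 and Zfp811 match the KRAB pattern used here and the other five do not. All 8 were called lower at P15 than at P6, and all but Zfp57 were also called lower at P6 than at P1 (Zfp57 gave -0.37, adjusted p = 0.0546, without overlap between its P1 and P6 libraries).

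The largest rise was that of Zfp365, also called DBZ, a brain protein that binds Disc1 and has no C2H2 match in its sequence despite its name (GRCm38 chr10:67886103-67912662, minus strand). It was at 5.10, 3.48 and 5.58 CPM at E14, 7.05, 8.91 and 10.04 CPM at E17 and 13.0, 12.1, 12.1 and 10.4 CPM at P1. It reached 44.4, 41.1 and 41.4 CPM at P6, 76.7, 80.2, 73.9 and 77.5 CPM at P15 and 119, 114, 114 and 118 CPM at P28, and lay at 99.9 to 143 CPM (median 113) at P60. The age groups did not overlap from one age to the next up to P28. Each of the first 5 steps passed the test, the largest being P6 against P1 with a log2 fold change of 1.75 (SE 0.125, adjusted p = 3.97e-13), and mature against embryonic retina gave 3.79 (SE 0.0803, adjusted p = 4.51e-28).

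Zfp593, which encodes a small protein related to a yeast factor of the large ribosomal subunit, rose from 16.9, 16.7 and 17.6 CPM at E14 to 108, 96.8 and 86.5 CPM at P6 and 124, 139, 139 and 190 CPM at P15. At P60 it lay between 166 and 226 CPM (median 195), and the log2 fold change was 3.05 (SE 0.0848, adjusted p = 6.88e-25). This value is uncertain as a value of Zfp593. Of its 50-base windows, 64.5% are shared with E130218I03Rik, a gene on the opposite strand whose entry rose from 20.97 CPM at E14 to 268 CPM at P60 (log2 fold change 3.24, adjusted p = 2.34e-24).

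The remaining rises were smaller. Zfp641 went from 8.97 to 16.8 CPM (median 12.2) in embryonic to 42.1 to 70.9 CPM (median 49.3) in mature libraries, a log2 fold change of 1.999 (SE 0.087, adjusted p = 1.28e-19). Zfp654 stood at 58.5 to 77.1 CPM (median 68.1) in embryonic and at 158 to 241 CPM (median 217) in mature libraries (1.59, SE 0.0667, adjusted p = 4.85e-20), and had reached 224, 230 and 248 CPM by P6. Zfp78 (1.62), Zfp444 (1.52), Zfp787 (1.28) and Zfp941 (1.25) completed the 8 genes. Each of the 8 rose between P1 and P6.

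**Figure D3:**
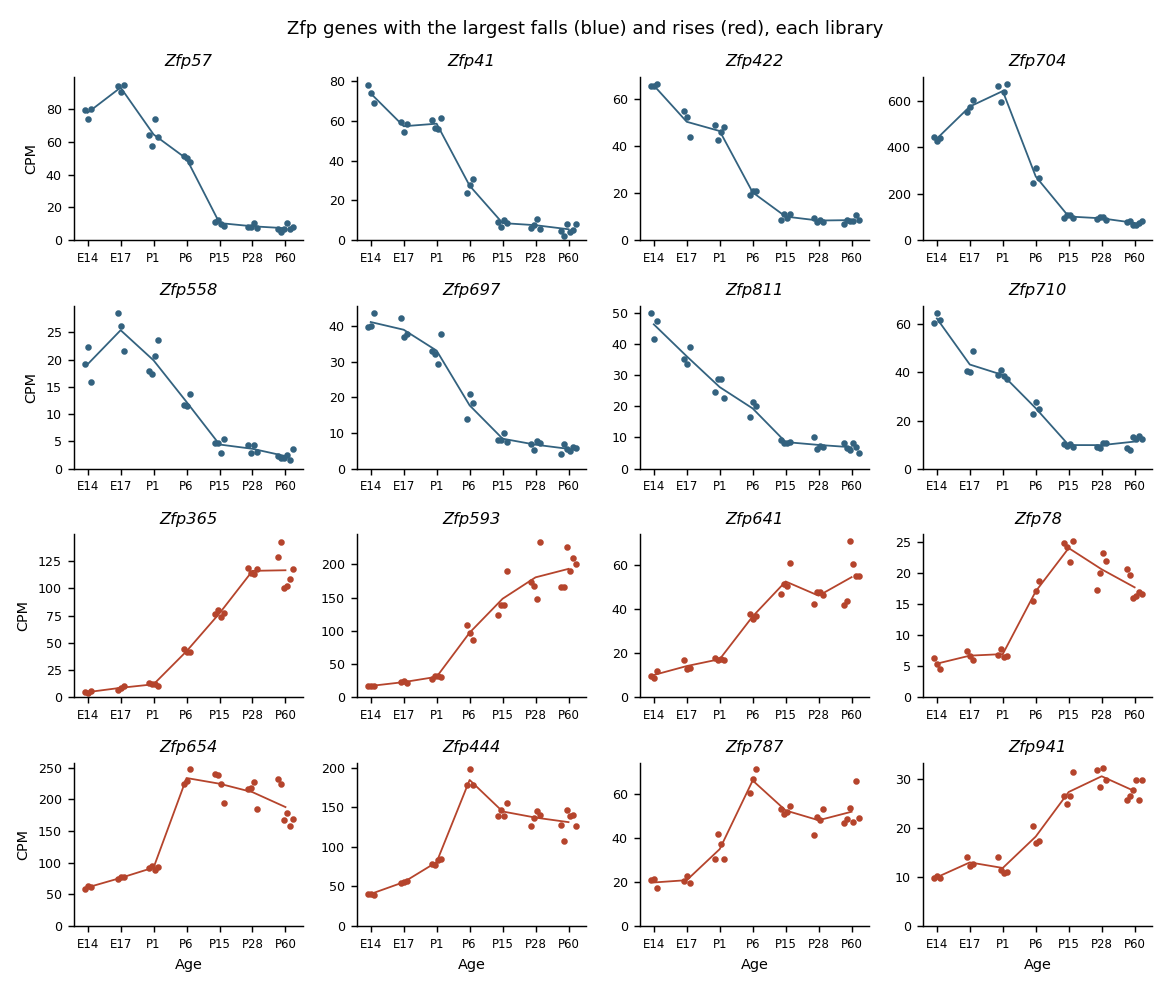
CPM (y axis, starting at 0, scaled per gene) by age (x axis) of the 8 Zfp genes with the largest falls (blue, upper rows) and the 8 with the largest rises (red, lower rows) among genes whose mature and embryonic libraries did not overlap; points are libraries and the line joins the age means. Zfp57 stayed above 47 CPM up to P6 and below 13 CPM from P15, while Zfp365 rose at each age up to P28.

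Over all 7 ages, 239 of the 262 genes varied (limma F test, adjusted p under 0.05; 83% of all features did) and 23 did not pass. The smallest ranges of age means on the log2 scale were those of Zfp329, Zfp507 and Zfp128. Zfp329 lay between 83.3 and 103 CPM in the embryonic and mature libraries, its age means on the log2 scale spanned 0.10, and the F test gave an adjusted p of 0.697. Zfp507 ranged from 71.2 to 94.8 CPM in the same libraries (adjusted p = 0.602) and Zfp128 from 12.6 to 19.6 CPM (adjusted p = 0.424). For mature against embryonic retina, Zfp128 gave -0.17 (adjusted p = 0.076) and was called lower without E14 replicate 2 (-0.24, adjusted p = 0.0181), P15 replicate 3 (-0.20, adjusted p = 0.0429) or P60 replicate 1 (-0.19, adjusted p = 0.0492). The level of Zfp329 relative to other genes was called higher in mature retina with edgeR's scaling (0.18, adjusted p = 0.00143) with median-of-ratios scaling (0.16, adjusted p = 0.00413) and without E17 replicate 1 (0.11, adjusted p = 0.0383), though not on the deposited scale with all libraries (0.08, adjusted p = 0.0943).

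Of the 262 genes, 67 had their highest age mean at E14, 36 at E17, 53 at P1, 39 at P6, 11 at P15, 17 at P28 and 39 at P60. By the mean at P1 or P6 over both the embryonic and the mature mean on the log2 scale, the highest middle peaks were those of Zfp503, Zfp536 and Zfp551. Zfp536, a repressor of neuronal differentiation genes, lay at 223 to 248 CPM at E14 and 388, 406 and 401 CPM at P6, and then at 182, 193, 205 and 202 CPM at P15. The fall from P6 to P15 was -1.03 on the log2 scale (SE 0.0998, adjusted p = 1.04e-09). Zfp503, a corepressor of eye and brain development also called Nolz1, was at 6.602, 4.01 and 5.58 CPM at E14 and 12.0, 15.4 and 15.1 CPM at E17, the largest rise of that step (1.26, SE 0.212, adjusted p = 5.26e-05), and peaked at P1 with 13.6 to 22.2 CPM. Zfp551 was at 19.1, 15.7 and 13.9 CPM at P6 and between 9.08 and 14.4 CPM at P1 (0.42, SE 0.162, adjusted p = 0.0395), with overlap.

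Among the Zfp genes as among all features, more genes were called in the steps from P1 to P6 and from P6 to P15 than in the other steps. Between E14 and E17, 13 genes changed (8 higher, 5 lower), where 10.6% of all features did (7.56% higher, 3.02% lower), and between E17 and P1 14 changed (8 higher, 6 lower), where 9.21% did (5.77% higher, 3.43% lower). These counts were 7 without E14 replicate 1 or 2 and 8 without E17 replicate 1 in the first step, and 5 without E17 replicate 1 or 2, 6 without E17 replicate 3 and 7 without P1 replicate 2 in the second. A fit of the compared ages alone gave 51 and 29, where 20.8% and 14.3% of all features were called. The main fit shares 1 estimate of the spread over all ages, P60 included. With P60 replicates 1 and 2 only, the counts were 37 and 31 (16.8% and 15.6% of all features). The part of the P60 spread in these counts was not tested. Between P1 and P6, 106 genes changed (39 higher, 67 lower, where 38.3% of all features did, 18% higher and 20.4% lower). Of these, 13 changed at least 2-fold (6 higher and 7 lower, where 13% of all features did, 6.3% higher and 6.74% lower). Only 2 of the 2-fold falls and 5 of the 2-fold rises were among the 205 genes that share at most 10% of their 50-base windows with another gene. Between P6 and P15, 128 genes changed, 14 higher and 114 lower, where 33.4% of all features did (14.4% higher). The falling genes of that step were 43.5% of the Zfp genes, beside 19% of all features and 33.2% of genes of at least 10 CPM. The size of this excess moved with the scaling. With edgeR 108 Zfp genes were called in that step (31% of all features). They were 11 higher and 21 lower with the KRAB pattern, and 10 higher and 66 lower without it. The median of the Zfp genes moved from -0.24 to -0.18, and that of all features from -0.06 to 0.0009. Between P15 and P28 only 10 genes changed (5 higher, 5 lower), where 2.72% of all features did (1.14% higher, 1.58% lower). Of the genes of at least 10 CPM, 17.3%, 15.8%, 54.4%, 51% and 4.98% changed in these 5 steps and 19.4% between P28 and P60, each above the share of the Zfp genes called in the same step. The direction in the first 2 steps depended on the scaling. With edgeR's scaling the counts were 7 higher and 7 lower from E14 to E17, and 4 higher and 11 lower from E17 to P1, and with median-of-ratios scaling they were 5 and 7, and 4 and 10.

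In the steps around P6, 44 genes fell both times, 8 rose both times, 7 rose and then fell, and 2 (Zfp367 and Zfp467) fell and then rose. These are 16.8%, 3.05%, 2.67% and 0.763% of the Zfp genes, beside 15.3%, 11%, 4.24% and 2.14% of genes of at least 10 CPM and 7.83%, 6.04%, 2.49% and 1.41% of all features. The 8 genes that rose both times were Zfp365, Zfp593, Zfp641, Zfp78, Zfp941, Zfp964, Zfp612 and Zfp960, and the 7 that rose and then fell were Zfp444, Zfp787, Zfp536, Zfp551, Zfp445, Zfp281 and Zfp783 (Zfp612, Zfp960, Zfp281 and Zfp783 fall outside the rule for named genes and were listed after their values were seen; 84.5% of the windows of Zfp960 are shared). Zfp367, known as an activator of fetal globin genes, had the largest single fall of that period. It was at 44.0, 44.3 and 41.7 CPM at E14, 45.5, 45.0 and 42.0 CPM at E17 and 47.3, 41.2, 47.3 and 46.8 CPM at P1, and then at 5.79, 5.84 and 6.48 CPM at P6. The P1 and P6 libraries did not overlap, and the log2 fold change of the step was -2.73 (SE 0.17, adjusted p = 1.29e-14). It rose again to 7.23, 10.9, 10.2 and 10.03 CPM at P15 (0.58, SE 0.17, adjusted p = 0.0083). Dividing and progenitor cell markers dropped in the same step, from 4790 to 5173 CPM at P1 to 554 to 622 CPM at P6, and their part in the fall of Zfp367 was not tested.

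Promoter sequences were read for 3 of these genes: Zfp367, because of its abrupt fall, and Zfp444 and Zfp787, neighbours 16.2 kb apart on chromosome 7 that rose together at P1 and P6 and fell together at P15. Shown are the 250 bases before a transcript start listed by RefSeq on GRCm38.p6, in the direction of the gene (other starts of the same gene can lie inside or outside the window), with E2F-type letters (TTCCCGC or TTGGCGC, on either strand) in capitals. The windows are chr13:64152374-64152623 on the minus strand for Zfp367 (of its 2 listed starts, the one whose window holds the letters), chr7:6172263-6172512 on the plus strand for Zfp444 and chr7:6155966-6156215 on the minus strand for Zfp787.
Zfp367: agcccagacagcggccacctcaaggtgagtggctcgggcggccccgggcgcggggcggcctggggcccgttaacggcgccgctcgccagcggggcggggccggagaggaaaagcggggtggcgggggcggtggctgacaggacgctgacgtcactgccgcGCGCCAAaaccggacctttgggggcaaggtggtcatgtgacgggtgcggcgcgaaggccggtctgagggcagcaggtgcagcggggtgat
Zfp444: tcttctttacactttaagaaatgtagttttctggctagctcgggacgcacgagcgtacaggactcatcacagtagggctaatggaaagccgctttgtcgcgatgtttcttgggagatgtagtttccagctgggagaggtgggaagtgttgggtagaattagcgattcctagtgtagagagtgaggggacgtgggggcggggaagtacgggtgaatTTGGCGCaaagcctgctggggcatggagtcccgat
Zfp787: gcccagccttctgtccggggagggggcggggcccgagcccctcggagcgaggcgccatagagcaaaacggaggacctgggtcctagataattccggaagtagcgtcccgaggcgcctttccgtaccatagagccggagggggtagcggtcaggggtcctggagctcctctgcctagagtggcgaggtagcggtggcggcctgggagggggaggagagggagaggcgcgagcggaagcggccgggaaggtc

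The letters begin at position -90 from that start in Zfp367 and at position -35 in Zfp444, genes that moved in opposite directions at P6, and Zfp787 has none. Windows of 250 bases before to 50 bases after the start were listed for 217 of the 262 genes. The E2F-type letters were in 12.1% of those that fell at least 2-fold, 10.3% of those that fell less, 13.2% of those not called, 12.0% of those that rose less than 2-fold and 11.1% of those that rose at least 2-fold, beside 7.79% of all genes with a window. The letters CCAAT, an NF-Y box, were in 42.4%, 41.4%, 55.3%, 64.0% and 33.3% of the same groups in that order, beside 41.1% of all genes. The letters TAATCC, which the photoreceptor factor CRX reads, were in none of the 33 windows of genes that fell at least 2-fold nor in the 9 of genes that rose at least 2-fold, in 5.75% of those that fell less, 3 of the 38 windows of those not called and 14.0% of those that rose less, and in 8.14% of all genes. The Zfp windows were richer in CG, with a median of 16 CG dinucleotides beside 8 over all genes.

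Zfp444, a factor first described in endothelial cells, was at 40.8, 40.9 and 39.6 CPM at E14, 78.1, 76.9, 83.7 and 84.6 CPM at P1, 178, 198 and 178 CPM at P6 and 139, 146, 139 and 155 CPM at P15. Its steps at P1 (0.54, SE 0.0843, adjusted p = 3.13e-05), P6 (1.18, SE 0.0843, adjusted p = 3.77e-13) and P15 (-0.35, SE 0.0843, adjusted p = 0.0016) all passed. Zfp787 was at 20.8, 21.3 and 17.1 CPM at E14, 30.4, 41.6, 37.2 and 30.3 CPM at P1 and 60.3, 66.5 and 71.3 CPM at P6. The steps of Zfp787 at the same ages were 0.71 (adjusted p = 9.96e-05), 0.91 (adjusted p = 2.41e-07) and -0.32 (adjusted p = 0.0376).

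In the smaller steps, single genes stood out by the rule that names the largest changes. Zfp568, which represses a placental Igf2 transcript, fell from 76.1, 77.3 and 69.6 CPM at E14 to 46.6, 42.9 and 46.6 CPM at E17 (-0.70, SE 0.131, adjusted p = 0.000239). Zfp710 also fell at E17 (-0.52, adjusted p = 0.0236), a call that was lost without any one of 5 of the 6 libraries (-0.54 to -0.48, adjusted p from 0.0536 to 0.109; E17 replicate 3 was the exception). Zfp808 went from 23.7, 25.8 and 25.3 CPM at E17 to 11.2, 12.1, 14.8 and 13.1 CPM at P1 (-0.92, SE 0.179, adjusted p = 0.000564), though 46.4% of its 50-base windows are shared with another gene. The fall of Zfp57 at P1 (-0.53, adjusted p = 0.02) was lost without E17 replicate 1, 2 or 3 or P1 replicate 2 (-0.55 to -0.48, adjusted p from 0.0557 to 0.0831). Zfp467, which promotes fat over bone differentiation, had the second largest rise at P15, from 11.4, 11.4 and 12.8 CPM at P6 to 23.0, 19.0, 20.7 and 19.5 CPM (0.74, SE 0.157, adjusted p = 0.000382).

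Between P15 and P28 the X-linked Zfp711, a partner of the histone demethylase PHF8, fell from 16.998, 13.6, 18.6 and 17.5 CPM to 11.7, 10.7, 7.58 and 10.2 CPM (-0.68, SE 0.127, adjusted p = 0.00122). Zfp46 fell in the same step (-0.48, adjusted p = 0.0165), but not without P15 replicate 4, P28 replicate 1 or P28 replicate 3 (-0.45 to -0.37, adjusted p from 0.064 to 0.0982). Zfp85 rose (0.58, adjusted p = 0.0179), but not without P15 replicate 1, 3 or 4 or P28 replicate 1 or 3 (0.49 to 0.57, adjusted p from 0.0517 to 0.0881), and 31.2% of its 50-base windows are shared. Leaving out 1 library brought the number of genes changed in that step to as few as 3.

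Of the genes known for imprints and retroelements, all 5 changed between embryonic and mature retina, 2 higher and 3 lower, with a median of -0.30. Beside this and the lists by role that follow, 75.4% of all features changed (35% higher, 40.4% lower). Genes of at least 10 CPM did so in 84.6% (38.1% higher, 46.6% lower). Zfp57 and Zfp568 (-1.58, SE 0.0789, adjusted p = 5.07e-18) fell, whereas Zfp445, which shares the imprint role of Zfp57, rose. Zfp445 lay at 232 to 258 CPM (median 245) in embryonic and at 336 to 462 CPM (median 382) in mature libraries without overlap, a log2 fold change of 0.62 (SE 0.0396, adjusted p = 2.89e-15). Zfp932, a silencer of endogenous retroviruses, rose by 0.61 (SE 0.0824, adjusted p = 7.98e-08), with 55.5% of its windows shared with its paralog Gm15446. Zfp809, which blocks proviruses that use a proline tRNA primer, was 16.98 to 23.0 CPM (median 19.8) in embryonic and 10.3 to 20.8 CPM (median 16.3) in mature libraries. Its log2 fold change of -0.30 (adjusted p = 0.0169) lost the call with edgeR (-0.20, adjusted p = 0.0981), with median-of-ratios scaling (-0.23, adjusted p = 0.057) and without E14 replicate 1 or E17 replicate 3 (adjusted p = 0.0547 and 0.0528).

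Of 4 genes whose human counterparts are linked to eye or related disease, 2 rose and 2 fell. Zfp423, a factor with ciliopathy and cerebellar mutations, fell from 105 to 136 CPM (median 125) in embryonic to 28.5 to 41.6 CPM (median 31.8) in mature libraries (-1.86, SE 0.067, adjusted p = 7.69e-22). Zfp408, linked to vitreoretinopathy and retinitis pigmentosa, went from 18.8 to 26.3 CPM (median 21.9) to 11.3 to 25.3 CPM (median 15.4), with overlap (-0.48, SE 0.0984, adjusted p = 6.4e-05). Zfp644, linked to high myopia, lay at 393 to 416 CPM (median 399) and then 353 to 757 CPM (median 509), a log2 fold change of 0.33 (SE 0.0758, adjusted p = 0.000218). Zfp513, linked to retinitis pigmentosa, rose by 0.33 (adjusted p = 0.0163), a call that was absent without P60 in the fit (0.20, adjusted p = 0.0524) and with P60 replicates 1 and 2 only (0.17, adjusted p = 0.0929).

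Of the genes of neural development, 7 were members (Zfp703 was below the limit), and 5 fell, 1 rose and 1 did not pass. Zfp711 (-2.08), Zfp292 (-0.66), Zfp521 (-0.54), Zfp536 (-0.54) and Zfp462 (-0.52) fell, each with mature libraries below all embryonic ones. Zfp462, a chromatin factor of neurodevelopment, lay at 500 to 534 CPM (median 523) and then at 310 to 430 CPM (median 362), with an adjusted p of 4.92e-14. Zfp335, a microcephaly gene, rose by 0.41 (SE 0.0886, adjusted p = 0.000108), but 20.3% of its windows are shared with genes on the opposite strand, where Pcif1 rose by 0.56 (adjusted p = 4.46e-08). Zfp503, with its peak at P1, gave 0.17 (adjusted p = 0.213) and with edgeR 0.31 (adjusted p = 0.0495).

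Of the genes that act on RNA, ribosomes or protein tags, 10 were members (Zfp36 was below the limit). Zfp593, Zfp106 (0.24) and Zfp346 (0.44) rose and Zfp451 (-0.99), Zfp326 (-0.84), Zfp622 (-0.38), Zfp91 (-0.38), Zfp638 (-0.36) and Zfp207 (-0.13) fell. Zfp451, a SUMO ligase, lay at 256 to 277 CPM (median 263) in embryonic and at 104 to 150 CPM (median 135) in mature libraries (SE 0.0494, adjusted p = 4.58e-18). Zfp326, a subunit of a complex that couples splicing to elongation, went from 87.7 to 105 CPM (median 93.2) to 40.1 to 65.8 CPM (median 53.9), with an adjusted p of 1e-12. The small fall of Zfp207, a spindle checkpoint and splicing protein, was not called with edgeR (-0.02, adjusted p = 0.671), with median-of-ratios scaling (-0.05, adjusted p = 0.351), without P60 (-0.06, adjusted p = 0.206) or without E14 or E17 replicate 1 (-0.11 and -0.10, adjusted p = 0.087 and 0.098). Zfp598, the ubiquitin ligase of collided ribosomes, gave 0.23 (adjusted p = 0.122), and was called higher with P60 replicates 3 to 6 only (0.35, adjusted p = 0.000344), with edgeR (0.38, adjusted p = 0.02) and without P60 replicate 1 or 2 (both 0.28, adjusted p = 0.0382 and 0.0306).

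The coding sequences of 260 of the 262 genes could be translated from the reference annotation, the other 2 being pseudogenes. At least 1 C2H2 match was present in 255, with a median of 11 and a highest count of 37 fingers, and 104 held the KRAB pattern. The pattern is strict: Zfp445, known to carry a KRAB domain, does not match it. Between embryonic and mature retina, 24 were higher and 58 lower of the 104 genes with the pattern (median -0.27), and 42 were higher and 90 lower of the 156 genes without it (median -0.36). These are 23.1% and 55.8%, and 26.9% and 57.7%. Over all features 35% were higher and 40.4% lower, and over genes of at least 10 CPM 38.1% and 46.6%. At P15 against P6, 30 genes with the pattern (28.8%) and 82 without it (52.6%) were lower, with medians of -0.15 and -0.30. In the same fit 19% of all features and 33.2% of genes of at least 10 CPM were lower. The counts of lower genes with and without the pattern were 21 and 66 with edgeR and 22 and 66 with median-of-ratios scaling. The difference between the classes was not tested. Of the 13 genes that changed at least 2-fold at P6, 10 were among the 48 genes with 1 to 6 finger matches, 2 among the 207 with 7 or more and 1 among the 5 with none, where 13% of all features changed that much. Among the 205 genes with at most 10% of 50-base windows shared, 5 rose and 2 fell at least 2-fold at P6. The difference between the finger classes was not tested.

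KRAB proteins act through partners, so KAP1 and heterochromatin genes were listed as well. Of 33 such genes tested, 27 were lower and 3 higher in mature retina, where 40.4% of all features were lower and 35% higher, and the median was -0.96. At least 2-fold lower were 16 of them, beside 16.1% of all features. The difference between this list and the Zfp genes was not tested. Trim28, which encodes KAP1, lay at 205 to 281 CPM (median 249) in embryonic and at 48.7 to 83.9 CPM (median 58.3) in mature libraries without overlap (-2.01, SE 0.0659, adjusted p = 5.67e-23). Setdb1 went from 105 to 124 CPM (median 112) to 48.9 to 86.1 CPM (median 60.2), with a log2 fold change of -0.90 (SE 0.0557, adjusted p = 1.33e-15). The largest fall was that of Uhrf1 (-7.03, adjusted p = 4.76e-33), which takes part in copying DNA methylation after replication. Dnmt3a, a de novo DNA methyltransferase, was higher (0.98, adjusted p = 3.24e-15), as were Mta2 (0.37) and Atf7ip (0.15). Uhrf1, Dnmt3a, Mta2 and Atf7ip fall outside the rule for named genes and were picked by their values.

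Zfp genes often lie side by side. With gaps of at most 250 kb, 81 of the 262 genes formed 10 runs of 5 or more, in which 17 genes were higher and 52 lower (median -0.38). Outside the runs 50 were higher and 96 lower of 181 (median -0.24). For comparison, 75.4% of all features changed (35% higher, 40.4% lower). The shares of genes of at least 10 CPM were 84.6% changed, 38.1% higher and 46.6% lower. The longest run, 13 genes from Zfp53 to Zfp946 on chromosome 17 (GRCm38 chr17:21488998-22456689), held 12 genes with the KRAB pattern, and all 13 changed, 3 higher and 10 lower (3 higher and 9 lower with edgeR, with median-of-ratios scaling and with P60 replicates 1 and 2 only). In the run of 12 genes from Zfp84 to Zfp146 on chromosome 7 (chr7:29768552-30169750), 2 were higher and 9 lower (3 and 9 with both other scalings). Neighbours did not always share a direction, and none of these counts was tested against other genes.

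All 8 genes of the run from Zfp553 to Zfp646 (chr7:127233061-127885996) were lower in mature retina, with a median of -0.79 and values from -1.64 for Zfp668 and -1.22 for Zfp629 to -0.27 for Zfp747 (adjusted p = 0.0366). Lower as well were 40.4% of all features and 46.6% of genes of at least 10 CPM. With edgeR, with median-of-ratios scaling and with P60 replicates 3 to 6 only, 7 of the 8 were called, all lower. All 5 genes of the run from Zfp560 to Zfp846 (chr9:20345136-20605409) were lower as well, among them Zfp266 (-1.21, adjusted p = 7.97e-15) and Zfp26 (-0.94, adjusted p = 5.31e-15), and this held with both other scalings. The run of 6 genes from Zfp787 to Zfp28 (chr7:6131491-6396915) had a median of 0.70: Zfp787, Zfp444 and Zfp78 rose, Zfp28 fell (-0.60, adjusted p = 1.3e-06), and Zfp667 (0.12, adjusted p = 0.204) and Zfp583 (-0.14, adjusted p = 0.112) did not pass. The members of the runs named in these sentences were taken by position and are given beside the genes named by rule. The runs of this paragraph were themselves picked by their values. The runs not described had 3 higher and 5 lower (Zfp871 to Zfp414), 2 and 6 (Zfp759 to Zfp85) and 1 and 5 (Zfp786 to Zfp746). Zfp180 to Zfp428 had 1 higher and 3 lower, and Zfp329 to Zfp446 2 higher and 0 lower.

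**Figure D4:**
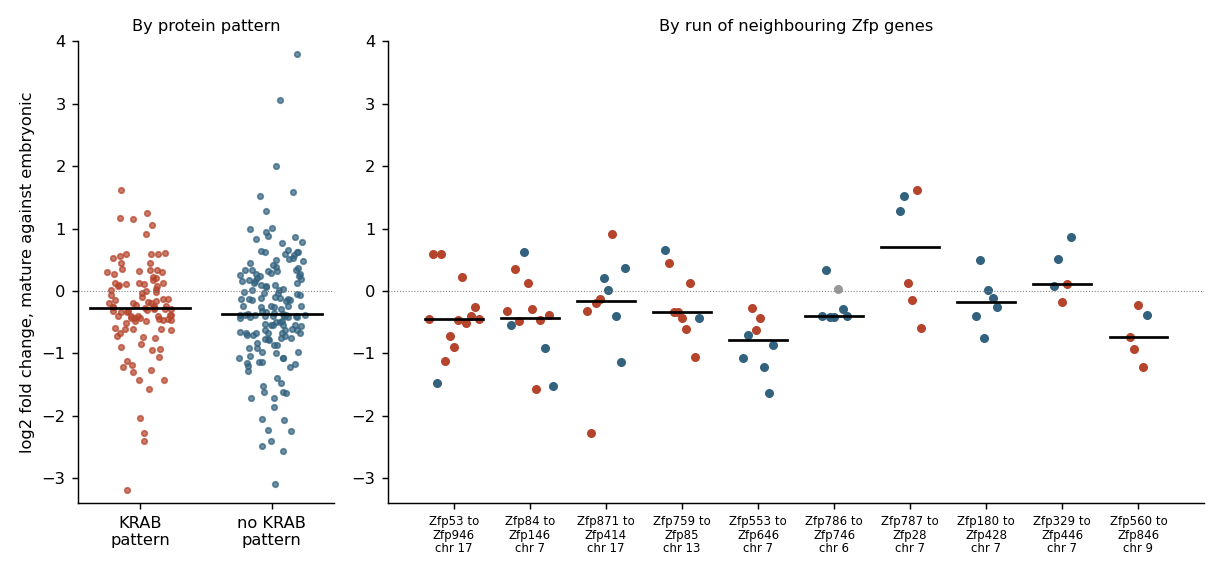
Log2 fold change of mature against embryonic retina (y axis, limma on log2(CPM + 1)) for 260 Zfp genes by KRAB pattern (left; points spread sideways for legibility) and for the 10 runs of neighbouring Zfp genes in genome order within a run (right); red, KRAB pattern; blue, none; grey, pseudogene; black lines, medians. The runs Zfp553 to Zfp646 and Zfp560 to Zfp846 lie wholly below 0, and the run Zfp787 to Zfp28 has a median of 0.70.

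Between P28 and P60, 37 genes changed, 20 higher and 17 lower, where 12.9% of all features did (4.8% higher, 8.11% lower), and none changed 2-fold, where 0.453% of all features did. The count rested on which P60 libraries were used. It was 110 (45 higher, 65 lower; 35.7% of all features) with P60 replicates 3 to 6 only and 4 with replicates 1 and 2 only, and in a fit of P28 and P60 alone limma called 0 genes at an adjusted p under 0.05 and 43 at an unadjusted p under 0.05, while edgeR on all libraries called 30. Leaving out 1 library gave 61 without P60 replicate 1, 64 without P60 replicate 2, 16 to 20 without P60 replicate 3, 4 or 5 and 12 to 24 without a P28 library. The split also moved with the scaling, to 24 higher and 6 lower with edgeR and 22 higher and 8 lower with median-of-ratios scaling. Of the 37 calls, 12 were genes with the KRAB pattern, 2 of them higher and 10 lower, and 25 were genes without it, 18 higher and 7 lower. With P60 replicates 1 and 2 only the counts were 0 higher and 1 lower, and 2 higher and 1 lower. With P60 replicates 3 to 6 only they were 3 higher and 36 lower, and 42 higher and 29 lower. On all libraries edgeR gave 2 higher and 4 lower, and 22 higher and 2 lower. Median-of-ratios scaling gave 2 higher and 6 lower, and 20 higher and 2 lower. The difference between the classes was not tested.

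Zfp598 shows the pattern in single libraries. It was at 25.4, 23.9, 24.2 and 26.3 CPM at P28 and at 23.1, 22.1, 55.2, 48.3, 49.9 and 40.2 CPM in P60 replicates 1 to 6. Replicates 1 and 2 lay below the P28 libraries and the other four above them. The log2 fold change of 0.57 (SE 0.181, adjusted p = 0.0381) became -0.14 (adjusted p = 0.765) with replicates 1 and 2 only, and the call was lost without any one of the P28 libraries or of P60 replicates 3 to 6 (adjusted p from 0.0599 to 0.0946). Zfp692, a repressor of gluconeogenic genes, was at 29.0, 34.5, 32.9 and 39.3 CPM at P28 and at 40.6, 35.8, 81.2, 59.1, 71.8 and 51.9 CPM at P60 (0.67, SE 0.154, adjusted p = 0.0084; with replicates 1 and 2 only 0.17, adjusted p = 0.666).

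Among the falls of that step, Zfp386 went from 76.9, 76.1, 93.0 and 83.2 CPM at P28 to 62.8, 64.4, 40.3, 50.3, 46.4 and 66.4 CPM at P60. All P60 libraries lay below all P28 libraries, with a log2 fold change of -0.59 (SE 0.108, adjusted p = 0.00225) and of -0.36 (adjusted p = 0.0792) with P60 replicates 1 and 2 only. Zfp931 was at 12.9, 14.3, 13.5 and 13.1 CPM at P28 and at 8.79, 7.18, 14.7, 8.95, 6.04 and 8.21 CPM at P60 (-0.58, adjusted p = 0.0219), a call that was lost with edgeR (-0.51, adjusted p = 0.0676) and without P28 replicate 1, 2 or 3 or P60 replicate 5 (-0.60 to -0.49, adjusted p from 0.0519 to 0.0664). Zfp644 was at 602, 565, 562 and 602 CPM at P28 and at 757, 715, 446, 465, 471 and 546 CPM at P60, so that replicates 1 and 2 lay above the P28 libraries and the others below them. Without P60 in the fit the mature against embryonic comparison called 216 of the 262 genes (67 higher, 149 lower), close to the 215 of all libraries.

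**Figure D5:**
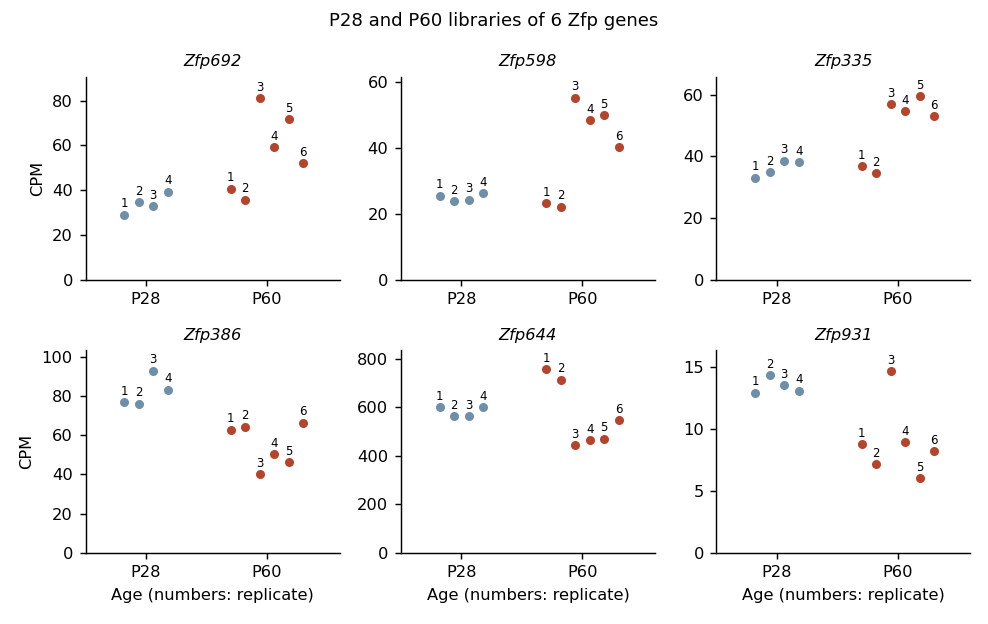
CPM (y axis, starting at 0) of 6 Zfp genes in the 4 P28 libraries (blue) and the 6 P60 libraries (red), with the replicate number above each point. P60 replicates 1 and 2 of Zfp598 (23.1 and 22.1 CPM) and Zfp335 (36.8 and 34.6 CPM) lie below all P28 libraries and among them, respectively, and in both genes below P60 replicates 3 to 6.

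Many Zfp genes are near-copies of each other or overlap other genes, and the counting rule for such reads is not given in the sources used here. More than 10% of the 50-base windows of a gene occurred in another gene for 55 of the 262, and more than 50% for 10. Exons overlapped a gene on the opposite strand for 61 and on the same strand for 20. Among the 205 genes with at most 10% shared windows, 56 were higher and 116 lower in mature retina, and among the 185 without any exon overlap 43 were higher and 108 lower. Related gene families chosen by the same limit had 8 higher and 15 lower of 31 Zbtb genes and 6 higher and 8 lower of 17 Zscan and Zkscan genes. Beside these counts, 35% of all features were higher and 40.4% lower, and 38.1% and 46.6% of genes of at least 10 CPM. At P15 against P6, 15 of the 31 Zbtb genes (48.4%) were lower and 4 (12.9%) higher, and 5 of the 17 Zscan and Zkscan genes (29.4%) were lower and 3 (17.6%) higher. In that step 19% of all features were lower and 14.4% higher, and 33.2% and 17.8% of genes of at least 10 CPM.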

How the data were processed

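Whole-retina RNA was sequenced by the authors as single-end 50-base reads from a SMARTer total RNA kit and aligned with STAR to mm10; the tool and build names also stand in the submitters' processing notes, and the gene annotation and strand setting are not given in the sources used here. The deposited table holds CPM values made by the authors, 1 column per library, for 38168 features, of which 23263 carry a Gene ID. All values were whole multiples of 1 read within 0.05, so the read totals behind the CPM values were recovered (7077781 to 11332323 per library). The reads counted to the listed features were 7076646 to 11330762. Precision at low levels is set by these totals.

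The 31760 features that reached 1 CPM in 3 or more libraries were tested with limma 3.58.1 in R 4.3.3 on log2(CPM + 1), with all 7 ages in 1 fit and Benjamini-Hochberg adjustment over all features. Fold changes are on that scale and understate changes of low genes. Counts were also taken with member limits of 5 CPM (305 genes) and 20 CPM (176 genes). edgeR 4.0.16 on the recovered reads, median-of-ratios scaling, other pseudocounts and filters, fits of the compared ages alone, a replicate block and leaving out each library were alternatives, and the choices of P60 libraries were added after seeing the data. On simulated data with changes of 1.5 on the log2 scale, limma recovered 193 to 200 of 200 changed genes per comparison with 3 to 15 false calls. Smaller changes, which most Zfp genes showed (209 of 262 under 1 in mature against embryonic retina), were not simulated. The simulation also changed only 200 features and gave all libraries the same dispersion. In the data most features changed in mature against embryonic retina and P60 libraries differed more, so these false calls do not carry over. Libraries were grouped by the labels, which do not say that every library is a separate pool, so p-values measure only the spread between these libraries.

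Members and gene lists were chosen with earlier results of these data known. Named genes were the 8 largest rises and falls without overlap between mature and embryonic retina, the 2 largest per direction and step, the 3 steadiest, the 3 with the highest middle peak, the 3 on each side of the limit, lists by role, and Trim28 and Setdb1. Of the 34 KAP1 list genes, 33 were found. Promoters came from RefSeq (GRCm38.p6), and KRAB and C2H2 patterns from translated annotated transcripts.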

Additional observations from a re-analysis of the deposited data

Results flagged for a closer look

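In 11 of 220 groups of 4 to 6 libraries, over 55 named Zfp genes, a single library stood apart from the others of its age by Dixon's criterion, and chance gives about 1 in 20. P15 replicate 4 was the highest of its age for 3 genes. It held 30.8 CPM of Zfp46 (others 24.5 to 25.3), 29.3 CPM of Zfp346 (others 17.4 to 18.7) and 35.5 CPM of Zfp423 (others 30.5 to 31.0). P28 replicate 1 was the lowest for Zfp128 at 14.4 CPM (others 16.5 to 16.7) and for Zfp451 at 129 CPM (others 136 to 138), and P28 replicate 3 the highest for Zfp329 at 103 CPM (others 94.5 to 95.6). At P60, replicate 5 held 65.9 CPM of Zfp787 (others 46.7 to 53.7) and replicate 3 held 14.7 CPM of Zfp931 (others 6.04 to 8.95). At P1, replicate 2 held 41.2 CPM of Zfp367 (others 46.8 to 47.3) and replicate 3 held 21.5 CPM of Zfp932 (others 18.1 to 18.5). P15 replicate 1 held 9.10 CPM of Zfp503 (others 10.5 to 10.7).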

How the results depend on the processing

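The counts of Zfp genes for mature against embryonic retina (147 to 241 called), P6 against P1 (78 to 131) and P15 against P6 (94 to 158) stayed within 1.5 times the main count under every alternative run. These ranges include member limits of 5 CPM (305 genes) and 20 CPM (176 genes) in place of 10 CPM, so not all are counts among the 262 genes. The smaller steps did not. With the compared ages alone the counts were 51 for E17 against E14, 29 for P1 against E17 and 0 for P60 against P28 (20.8%, 14.3% and 0.022% of all features). With only genes of at least 10 CPM tested they were 21 and 23 for the first 2 steps. With P60 replicates 3 to 6 only, replicates 1 and 2 only, or no P60 library in the fit, they were 27, 37 and 39 for E17 against E14, 24, 31 and 30 for P1 against E17, and 16, 31 and 31 for P28 against P15. P60 against P28 gave 110 with replicates 3 to 6 and 4 with replicates 1 and 2, where Zfp598 turned from 0.57 to -0.14 (adjusted p = 0.765). The cause was not tested.

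Without 1 library the counts ran from 205 to 217 for mature against embryonic retina, 7 to 17 for E17 against E14, 5 to 19 for P1 against E17, 86 to 112 for P6 against P1, 104 to 136 for P15 against P6, 3 to 13 for P28 against P15 and 12 to 64 for P60 against P28. E17 against E14 fell to 7 without E14 replicate 1 or 2 and to 8 without E17 replicate 1, and P1 against E17 to 5 without E17 replicate 1 or 2, 6 without E17 replicate 3 and 7 without P1 replicate 2. P28 against P15 fell to 3 without P28 replicate 3, 5 without P15 replicate 3 and 6 without P15 replicate 1, 2 or 4 or P28 replicate 1 or 4.

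Same-numbered libraries of different ages did not deviate together (r from -0.13 to 0.17 over 69 pairs, 3 over 0.1), and 3 of 27 libraries correlated best with their own number. With the replicate number as a block, P60 against P28 gave 9. Of 2998 alternatives for 79 single-gene results, 2927 kept direction and call, 55 lost the call, 15 gained it and 1 reversed. Most of these alternatives left out 1 library. Where that library was of an age outside the comparison, the fold change could not move and only the estimate of the spread could. Many of the results were also chosen as the largest changes, so this tally does not measure how firm a result is.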
